A study of Mus musculus with 2 samples.

Results

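Vesicle coats, SNAREs and sorting factors were followed in 2 single cells of dissociated CD1 mouse retina, 1 taken on the day of birth (P0) and 1 from an embryo on day 12.5 (E12.5). The members were the 315 probe sets whose single gene symbol began with Vps, Snx, Stx, Vamp, Snap or Sec and a digit, or named a COPI subunit or a beta, gamma, sigma or mu subunit of the adaptor complexes AP-1 to AP-4. They covered 145 genes of 18194 named genes on the array, and 315 of 45101 probe sets. CD1 is an albino outbred strain, and the labels name no transgene, deletion or treatment other than papain to free the cells. Both cells were labelled ciliary body, the rim of the optic cup that later makes aqueous humour, and the submitters had placed them in the ciliary body or iris region by genes they expressed. Below, P0 and E12.5 stand for these 2 cells. There was 1 cell per age, so every difference is one between these 2 cells and none has a p-value or a standard error.

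Proteins enter the secretory pathway through the Sec61 channel of the endoplasmic reticulum (ER), leave the ER in vesicles coated by COPII, and are returned from the Golgi in vesicles coated by COPI. Clathrin with its AP adaptors packs cargo at the Golgi, the plasma membrane and endosomes, and SNAREs, helped by tethering complexes, fuse each vesicle with its target. Within endosomes, retromer and sorting nexins send receptors back, while ESCRT complexes sort ubiquitinated receptors inward for breakdown in lysosomes. An epithelium of the ciliary rim uses these routes to place transporters and to secrete matrix.

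A signal counted as above background when it passed a limit, the 99th percentile of 180 probe sets of gene families that the eye is not known to use, which was 348 at P0 and 255 at E12.5. A gene was called higher in a cell when its signal passed that cell's limit and the ratio of P0 over E12.5 was at least 4-fold either way, with signals under a limit set to that limit. A fold whose dimmer signal lay under the limit is only a minimum and carries the words "at least". Where 2 probe sets of a gene passed the limits in both cells, their log2 ratios differed by a root mean square of 1.20 over 976 genes and of 1.04 over 15 members. Of 16 ciliary margin markers, 8 were above the limit at P0 and 9 at E12.5, 6 of them in both, while Msx1, Msx2, Bmp4, Mitf and Wnt2b were above it in neither. No photoreceptor marker of 4 and no ganglion cell marker of 4 was above a limit in either cell. Of 4 mesenchyme markers, Col1a2 (2653 at P0 and 5.9998 at E12.5) and Pdgfra (3088 and 63.0) passed it at P0 and 0 did at E12.5, and the summed signal of the 4 was 5840 at P0 and 178 at E12.5, with Col1a1 below both limits. Of 3 vascular markers Rgs5 passed the limit at P0 alone (833 at P0 and 47.9 at E12.5), and of 5 amacrine markers Slc32a1 passed it at E12.5 alone (322 and 438). The 3 microglia markers and the 1 erythroid marker on the array were below both limits. The 3' to 5' signal ratio of the actin control was 2.20 at P0 and 6.17 at E12.5, that of Gapdh 1.43 and 1.06, and 18S ribosomal RNA probe sets gave 258 to 1696 at P0 and 7813 to 10783 at E12.5. What part these differences have in the ratios below was not tested.

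Most members were expressed in at least 1 of the cells. In the P0 cell 86 of the 145 genes (59.3%) were above the limit, against 28.4% of all named genes. In the E12.5 cell 74 were (51.0%), against 30.3% of all named genes, and 56 members (38.6%) were above the limit in both cells, against 18.7%. A total of 41 members were above neither limit. In the comparison of the cells, 30 members (20.7%) were called higher at P0, against 9.28% of all named genes, and 12 (8.28%) were called lower there, against 7.3%. Among genes above a limit in at least 1 cell, the shares were 28.8% of 104 members against 23.2% of 7279 genes for a higher signal at P0, and 11.5% against 18.3% for a lower one. The median log2 ratio of these 104 members was 0.40, and that of the 7279 genes 0.02.

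The split between the directions depended on how the arrays were scaled. With the arrays scaled to the hybridisation spike-ins, which lowered the median log2 ratio of genes above both limits by 0.87, the calls were 21 members higher and 19 lower at P0, in place of 30 and 12. The P0 side held 56.0% of all calls on the array with the deposited scaling and 33.3% with the spike-ins. For members it held 71.4% and 52.5% of the calls. Under the deposited scaling the dimmer cell was below its limit for 24 of the 30 genes called higher and for 11 of the 12 called lower, so most folds are lower bounds. The 56 genes above both limits had log2 ratios with a median of 0.02 and an SD of 1.26, and 36 of them (64.3%) differed by less than 2-fold. Over all 3401 genes above both limits the SD was 1.46 and 54.6% differed by less than 2-fold. Across the 56 genes, which share a library in each cell and are not independent, Pearson's r between log2 signals at P0 and at E12.5 was 0.51 and Spearman's rho 0.52, against 0.53 and 0.50 over the 3401 genes.

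**Figure D1:**
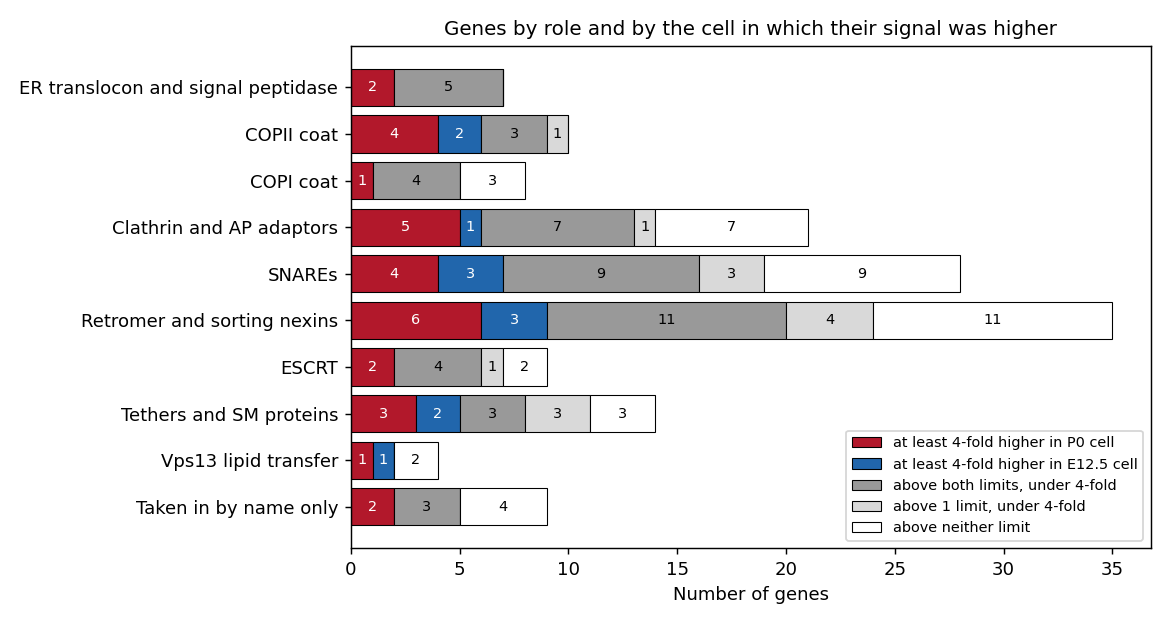
Number of genes in each role group by state: at least 4-fold higher at P0, at least 4-fold higher at E12.5, above both limits with a smaller difference, above 1 limit with a smaller difference, and above neither limit. All 7 translocon and signal peptidase genes and all 10 COPII genes were above a limit in at least 1 cell, whereas 11 of 35 retromer and sorting nexin genes and 9 of 28 SNARE genes were above neither.

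At the ER membrane the genes of the translocon pore differed little between the 2 cells, and those of its partners Sec62 and Sec63 were called higher at P0. Sec61a1, the gene of the channel subunit, had a signal of 13721 at P0 and 12239 at E12.5, and Sec61b, a small subunit, had 11517 and 8572. The second channel subunit gene Sec61a2 had 1552 at P0 and 1343 at E12.5, so that no Sec61 gene differed by more than 1.34-fold in the probe set used. A second probe set of Sec61a2 gave 979 and 525, 1.86-fold higher at P0. With the spike-in scaling the log2 ratios of Sec61a1, Sec61a2 and Sec61b turned to -0.70, -0.66 and -0.44. Sec63, whose J domain recruits the chaperone BiP to the channel, had 6470 at P0 and 89.4 at E12.5, at least 25.4-fold higher at P0. Sec62, which works with Sec63 in translocation after translation, had 1508 at P0 and 101 at E12.5, at least 5.92-fold higher. Further probe sets of Sec63 gave 3600 and 3224 at P0, against 1.17 and 12.5 at E12.5, but another gave 32.4 at P0 and 490 at E12.5, the opposite direction. For Sec62 a further probe set gave 3129 at P0 and 15.1 at E12.5, and another, 305 and 325, passed the limit at E12.5 alone. The call of Sec62 was lost without probe sets of the _x_at and _s_at kinds, which may bind other transcripts, and under the spike-in scaling. The catalytic subunits of signal peptidase, which cuts the leader off imported proteins, were lower at P0 by less than 2-fold: Sec11a had 9667 at P0 and 18891 at E12.5, and Sec11c had 2320 and 4210. With the spike-in scaling their log2 ratios were -1.83 and -1.73.

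Among COPII genes, which build the coat of vesicles leaving the ER, paralogs differed in opposite directions. Of 10 genes, all above a limit in at least 1 cell, 4 (40%) were called higher at P0 and 2 (20%) lower. The shares of all genes above a limit were 23.2% and 18.3%. Sec31a, of the outer cage, had 5839 at P0 and 11.03 at E12.5, at least 22.9-fold higher, and its cage partner Sec13 had 3525 and 651, 5.41-fold higher. Sec24d, one of the subunits that bind cargo, had 3965 at P0 and 11.1 at E12.5, at least 15.6-fold higher. Its paralog Sec24a lay on the other side, with 44.7 at P0 and 2566 at E12.5, at least 7.37-fold lower at P0. The 2 remaining cargo subunits were above both limits, Sec24b with 1148 at P0 and 2362 at E12.5 and Sec24c with 2115 and 4721. Each cell thus had 3 of the 4 Sec24 genes above its limit.

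The subunit that switches off the GTPase Sar1 in the same coat also had paralogs that differed. Sec23a had 5226 at P0 and 1275 at E12.5, 4.10-fold higher at P0, and Sec23b had 1747 and 5828, 3.34-fold lower. Sec16a, a scaffold of ER exit sites, had 13.4 at P0 and 1400 at E12.5, at least 4.02-fold lower, and its second probe set gave 3.36 and 2407. Sec16b had 542 at P0 and 1.71 at E12.5, at least 2.13-fold higher, which did not reach 4-fold. The directions of single paralogs depended in part on scaling: with the spike-ins Sec13 and Sec23a lost their calls and Sec23b and Sec24c gained calls as lower at P0, giving 2 higher and 4 lower. Sec31a, Sec24d, Sec16a and Sec24a were called the same way under the spike-in scaling. Sec31a, Sec24d, Sec13, Sec23a and Sec23b have a single probe set each, so no second measurement exists on these arrays.

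COPI, the coatomer of vesicles that return from the Golgi to the ER, had 5 of 8 genes above both limits. Copa, the alpha subunit of its outer layer, had 8987 at P0 and 1018 at E12.5, 8.83-fold higher at P0, and was the only member of the group that was called. Its second probe set was below both limits, with 1.60 and 42.9. Copb2 (10438 at P0 and 4589 at E12.5) and Copg1 (7539 and 3259) were higher at P0 by 2.27-fold and 2.31-fold, and a second probe set of each had the same sign. Cope had 4090 at P0 and 3118 at E12.5, and Copz1 had 6441 and 10033, the only one of the 5 with the higher signal at E12.5 under the deposited scaling. With the spike-in scaling Copa kept its call, and the log2 ratios of Copb2 and Copg1 were 0.32 and 0.34. Those of Cope and Copz1 were then -0.48 and -1.51. Copb1, Copg2 and Copz2 were above neither limit.

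**Figure D2:**
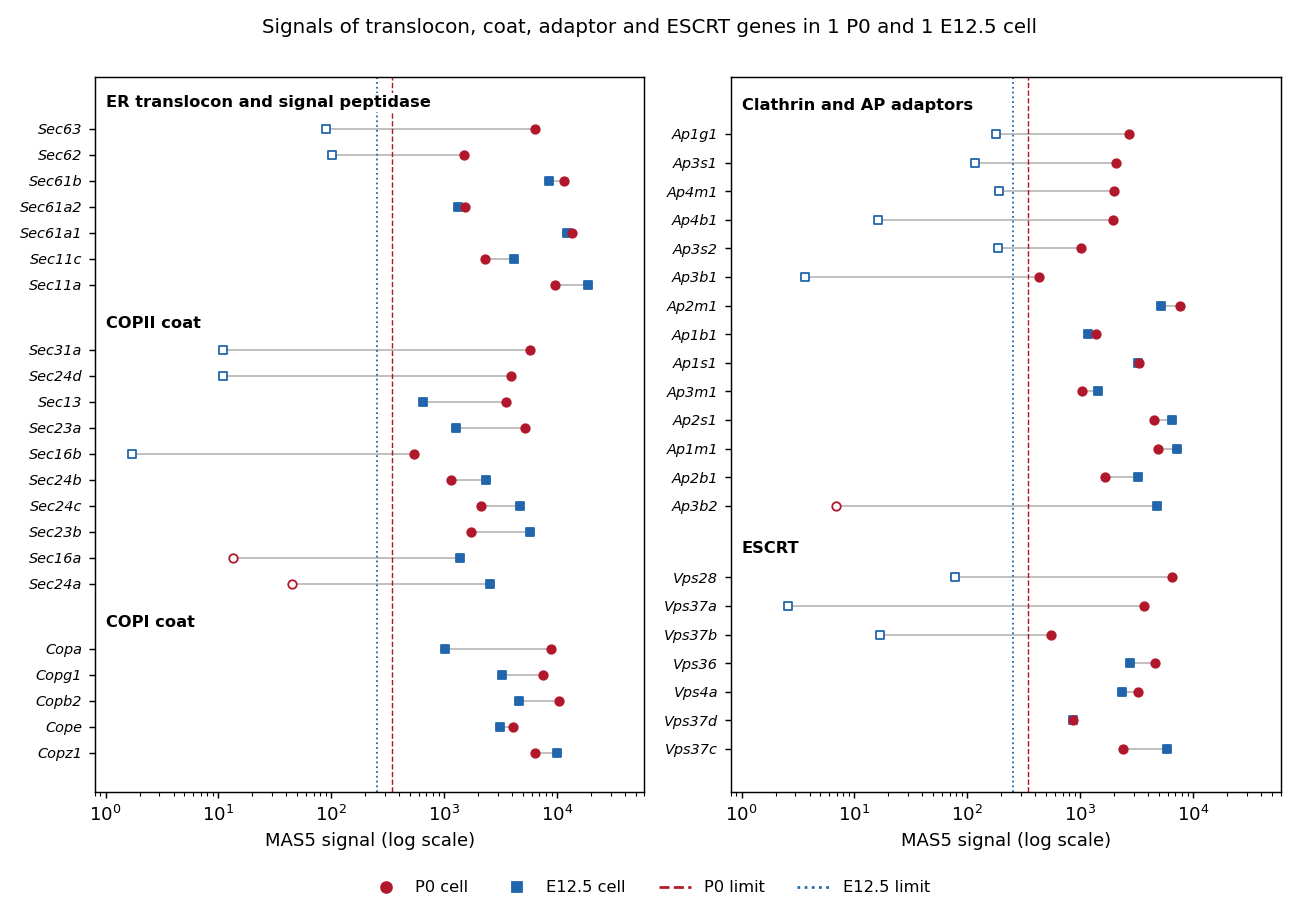
MAS5 signals, on a log scale, of translocon, COPII, COPI, adaptor and ESCRT genes above a limit in at least 1 cell, with a circle for the P0 cell and a square for the E12.5 cell. Open symbols lie below that cell's limit, which is drawn as a dashed line for the P0 cell (348) and a dotted line for the E12.5 cell (255). Sec31a, Sec24d and Vps28 lie far apart, and the Sec61 genes and the AP-2 genes plotted lie close together.

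Adaptor subunits are given by complex. With the spike-in scaling the log2 ratios of Ap2m1, Ap2s1 and Ap2b1 were -0.31, -1.40 and -1.82, and the signals that follow are those of the deposited scaling. AP-2, which works with clathrin in endocytosis at the plasma membrane, was above both limits for its beta, mu and sigma subunit genes, each less than 2-fold apart: Ap2m1 had 7670 at P0 and 5229 at E12.5, Ap2s1 had 4509 and 6540, and Ap2b1 had 1677 and 3253. Its alpha subunit gene Ap2a2, a partner gene outside the name pattern, had 115 at P0 and 5307 at E12.5, and the other alpha gene Ap2a1 had 786 and 700.2. AP-1, which sorts between the Golgi and endosomes, had Ap1b1 (1378 at P0 and 1171 at E12.5), Ap1s1 (3308 and 3249) and Ap1m1 (4911 and 7292) above both limits. Its gamma subunit gene Ap1g1 had 2725 at P0 and 180 at E12.5, at least 10.7-fold higher at P0. A second probe set of Ap1g1 gave 2605 at P0 and 148 at E12.5, but a further one gave 76.9 and 1441, at least 4-fold in the other direction.

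AP-3, which carries cargo to lysosomes and to pigment granules, differed subunit by subunit. Its small subunit genes Ap3s1 (2070 at P0 and 117 at E12.5) and Ap3s2 (1020 and 186) were higher by at least 8.13-fold and 4.01-fold at P0. A further probe set of Ap3s2 gave 791 and 113, at least 3.10-fold higher, but another gave 15.3 at P0 and 305 at E12.5. The call of Ap3s2 was lost under 5 alternative settings. Ap3b2, the beta subunit gene known from neurons, had 6.84 at P0 and 4857 at E12.5, at least 13.96-fold lower at P0. The widely expressed beta subunit gene Ap3b1 had 434 at P0 and 3.63 at E12.5. Each cell thus had a beta subunit gene of its own above the limit, although the P0 signal of Ap3b1 was close to that limit. The medium subunit gene Ap3m1 had 1037 at P0 and 1441 at E12.5, and a second probe set gave 1451 and 181, the opposite direction. AP-4, which exports a small set of cargo from the Golgi, was above the limit at P0 alone for both of its genes that passed one: Ap4m1 had 2023 at P0 and 191 at E12.5 and Ap4b1 had 1970 and 16.1, higher by at least 7.94-fold and 7.73-fold. Ap1g2, Ap1m2, Ap1s2, Ap1s3, Ap3m2, Ap4s1 and Snap91, a clathrin assembly protein of synapses, were above neither limit.

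Of 28 SNARE genes 10 (35.7%) were above both limits, 6 at P0 alone, 3 at E12.5 alone and 9 in neither cell, and 7 were called. Of the 19 above a limit, 21.1% were called higher at P0 and 15.8% lower, near the 23.2% and 18.3% of all such genes. Higher at P0 were 4 syntaxins. Stx18, which receives COPI vesicles at the ER, had 4250 at P0 and 12.3 at E12.5, at least 16.7-fold higher, and all 4 further probe sets had the same sign, 3 of them at least 4-fold. Stx8, of late endosome fusion, had 3437 at P0 and 53.8 at E12.5, at least 13.5-fold higher. Stx19 (2686 and 6.32) and the plasma membrane syntaxin gene Stx2 (2165 and 82.0) were higher by at least 10.5-fold and 8.50-fold at P0.

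Lower at P0 were Stx5a, Vamp2 and Stx4a. Stx5a, the Golgi syntaxin that pairs with vesicles from the ER, had 693 at P0 and 4917 at E12.5, 7.09-fold lower at P0, but this probe set is of the _s_at kind. Its second probe set gave 91.6 and 855, at least 2.46-fold lower, so the call was lost without such probe sets. Vamp2, the vesicle SNARE best known from synaptic vesicles, had 211 at P0 and 2443 at E12.5, at least 7.02-fold lower. Stx4a, a plasma membrane syntaxin, had 94.0 at P0 and 2357 at E12.5, at least 6.78-fold lower. Of 6 neuronal synaptic and neurite markers, 0 were above the limit at P0 and 2 at E12.5, Syt1 (58.2 at P0 and 1199 at E12.5) and Tubb3 (25.3 and 3783). The summed signal of the 6 was 160 at P0 and 5166 at E12.5, and Syp, Sv2a, Syn1 and Stmn2 were below both limits. What part this has in Vamp2 or in Ap3b2 was not tested. The SNARE genes of the mature synapse Snap25, Stx1a and Vamp1 were above neither limit.

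Among SNAREs above both limits, Vamp3, of recycling endosomes, came nearest to a call, with 1815 at P0 and 6626 at E12.5, 3.65-fold lower at P0. Of its 4 further probe sets 2 had the same sign and 2 the opposite one. Vamp8, an endosomal SNARE gene, had 2488 at P0 and 788 at E12.5, and Stx3, the syntaxin of apical membranes in epithelia, had 7549 and 3770. The other genes above both limits were the plasma membrane partner Snap23 (1030 at P0 and 797 at E12.5), Snap47 (2225 and 2503), the endosomal Stx12 (4611 and 5614), the Golgi syntaxin gene Stx16 (2122 and 3971), Sec22b of the ER (2316 and 3575) and the lysosomal Vamp7 (418 and 997). These differed by 2.39-fold at most. A second probe set of Sec22b, 638 at P0 and 2804 at E12.5, reached 4.40-fold, and one of Vamp7 (357 and 19.2) lay in the opposite direction. With the spike-in scaling Vamp3 and Vamp7 were called lower at P0, so that the SNAREs had 4 genes higher and 5 lower. Stx17, the syntaxin of autophagosomes, was above the limit at P0 alone (729, against 94.8 at E12.5) and did not reach 4-fold, while 2 of its further probe sets did, with 1174 and 1436 at P0, against 5.35 and 3.19 at E12.5. Vamp4 (565 at P0 and 2.41 at E12.5) and Stx7 (12.3 and 471) were each above 1 limit and under 4-fold.

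**Figure D3:**
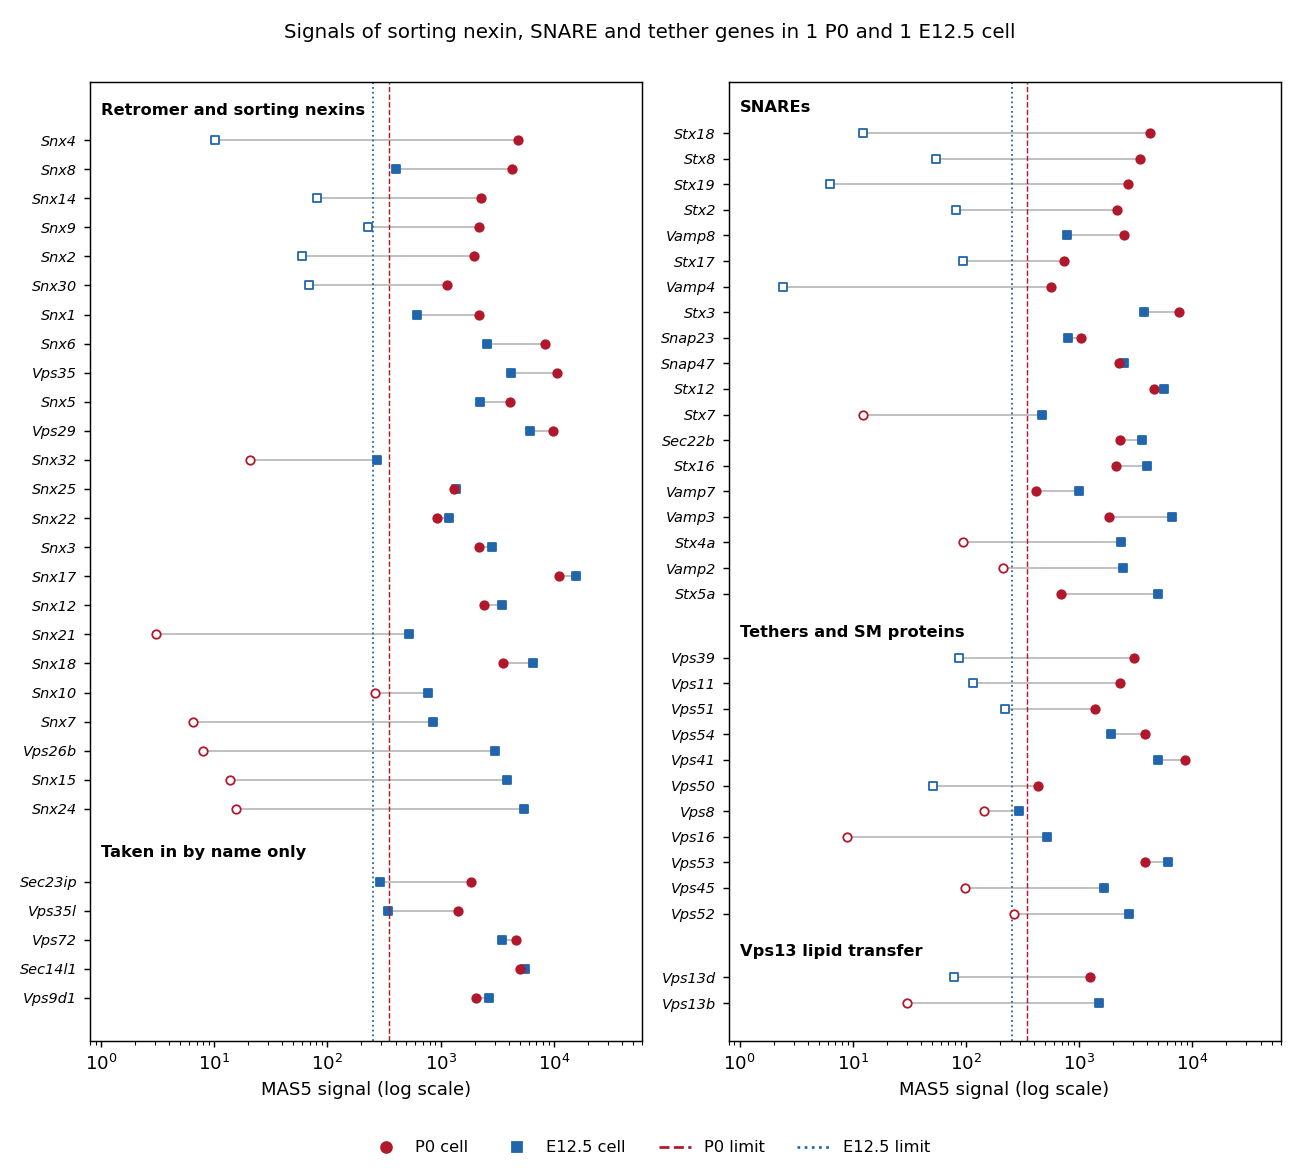
MAS5 signals, on a log scale, of retromer, sorting nexin, SNARE, tether and Vps13 genes and of genes taken in by name only, for genes above a limit in at least 1 cell, with circles for the P0 cell, squares for the E12.5 cell and open symbols below the limit. Snx4 (4855 at P0 and 10.1 at E12.5) and Snx24 (15.6 and 5446) mark the ends of the range among sorting nexins.

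Retromer, the complex of Vps35, Vps29 and Vps26 that returns receptors from endosomes, had its first 2 subunits above both limits. Vps35 had 10624 at P0 and 4212 at E12.5, 2.52-fold higher at P0, and Vps29 had 9940 and 6218. Vps26b had 7.92 at P0 and 3045 at E12.5, at least 8.75-fold lower at P0, and its 2 further probe sets were below both limits. Vps26a had 301 at P0 and 207 at E12.5, below both limits, so that no probe set of a classical Vps26 gene passed the limit at P0. With the limit at the 95th percentile (105 at P0 and 118 at E12.5) the Vps26a signals lay above it in both.

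Several sorting nexins bend membranes with a BAR domain, and some of these work beside retromer. Snx2 had 1967 at P0 and 59.7 at E12.5, at least 7.72-fold higher, and its paralog Snx1 had 2183 and 618, 3.53-fold higher and the nearest to a call on that side. Snx6 had 8390 at P0 and 2592 at E12.5 and Snx5 had 4107 and 2234, with 2 further probe sets of Snx6 and 3 of Snx5 of the same sign. Of the 3 of Snx5, 2 were at least 4-fold higher at P0, with 5566 and 2973 at P0, against 759 and 0.81 at E12.5. Of the 2 of Snx6, 1 was, with 3577 at P0 and 590 at E12.5. With the spike-in scaling the log2 ratio of Snx5 was 0.01 and Snx30 lost its call. Snx32, of the same type as Snx5 and Snx6, had 20.8 at P0 and 276 at E12.5, above the limit at E12.5 alone. In the same family Snx4, of recycling to the plasma membrane, had 4855 at P0 and 10.1 at E12.5, at least 19.1-fold higher, and Snx8 had 4237 and 404, 10.5-fold higher. Snx9, which recruits dynamin in endocytosis, had 2202 at P0 and 227 at E12.5, at least 8.64-fold higher. Its second probe set gave 787 and 438. Snx30 (1148 and 68.8) was at least 4.51-fold higher. Snx18, the paralog of Snx9, had the lower signal at P0 (3559, against 6587 at E12.5), and Snx7, related to Snx30, was below the limit at P0 (6.46) and above it at E12.5 (862).

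Sorting nexins of other kinds gave calls in both directions. Snx14 had 2286 at P0 and 81.6 at E12.5, at least 8.97-fold higher at P0. Snx24 had 15.6 at P0 and 5446 at E12.5, at least 15.7-fold lower at P0, the highest such minimum in that direction among the 145 genes. Snx15 had 13.8 at P0 and 3881 at E12.5, at least 11.2-fold lower. Each of these 3 genes has a single probe set. Snx17, which recycles integrins and lipoprotein receptors, had 11086 at P0 and 15752 at E12.5, and Snx3, a retromer partner, had 2174 and 2823. Snx12 (2429 and 3486), Snx22 (921 and 1195) and Snx25 (1321 and 1369) also differed by less than 2-fold. Snx10 and Snx21 were above the limit at E12.5 alone and were not called, and 9 nexin genes, Snx11, Snx13, Snx16, Snx19, Snx20, Snx27, Snx29, Snx31 and Snx33, were above neither.

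Among ESCRT genes, whose products bud vesicles into endosomes, 2 of 9 were called higher at P0 and 0 lower. Of the 7 above a limit that is 28.6%, near the 23.2% of all such genes. Vps28, of ESCRT-I, had 6587 at P0 and 77.6 at E12.5, at least 25.9-fold higher, the highest such minimum among the 145 genes. Vps37a, of the same complex, had 3713 at P0 and 2.60 at E12.5, at least 14.6-fold higher, with its 2 further probe sets below both limits. The alternative subunit Vps37c had 2390 at P0 and 5911 at E12.5, Vps37d had 867 and 863, and Vps37b was above the limit at P0 alone (556, against 17.0 at E12.5). Vps4a, the ATPase that takes the ESCRT machinery apart, had 3249 at P0 and 2375 at E12.5. Vps36, of ESCRT-II, had 4608 at P0 and 2749 at E12.5, whereas a second probe set gave 134 and 3328. With the spike-in scaling Vps37c was called lower at P0, so that the group had 2 genes higher and 1 lower. A second probe set of Vps37c gave 2104 at P0 and 1741 at E12.5, the opposite direction, and both are of the _s_at kind.

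**Figure D4:**
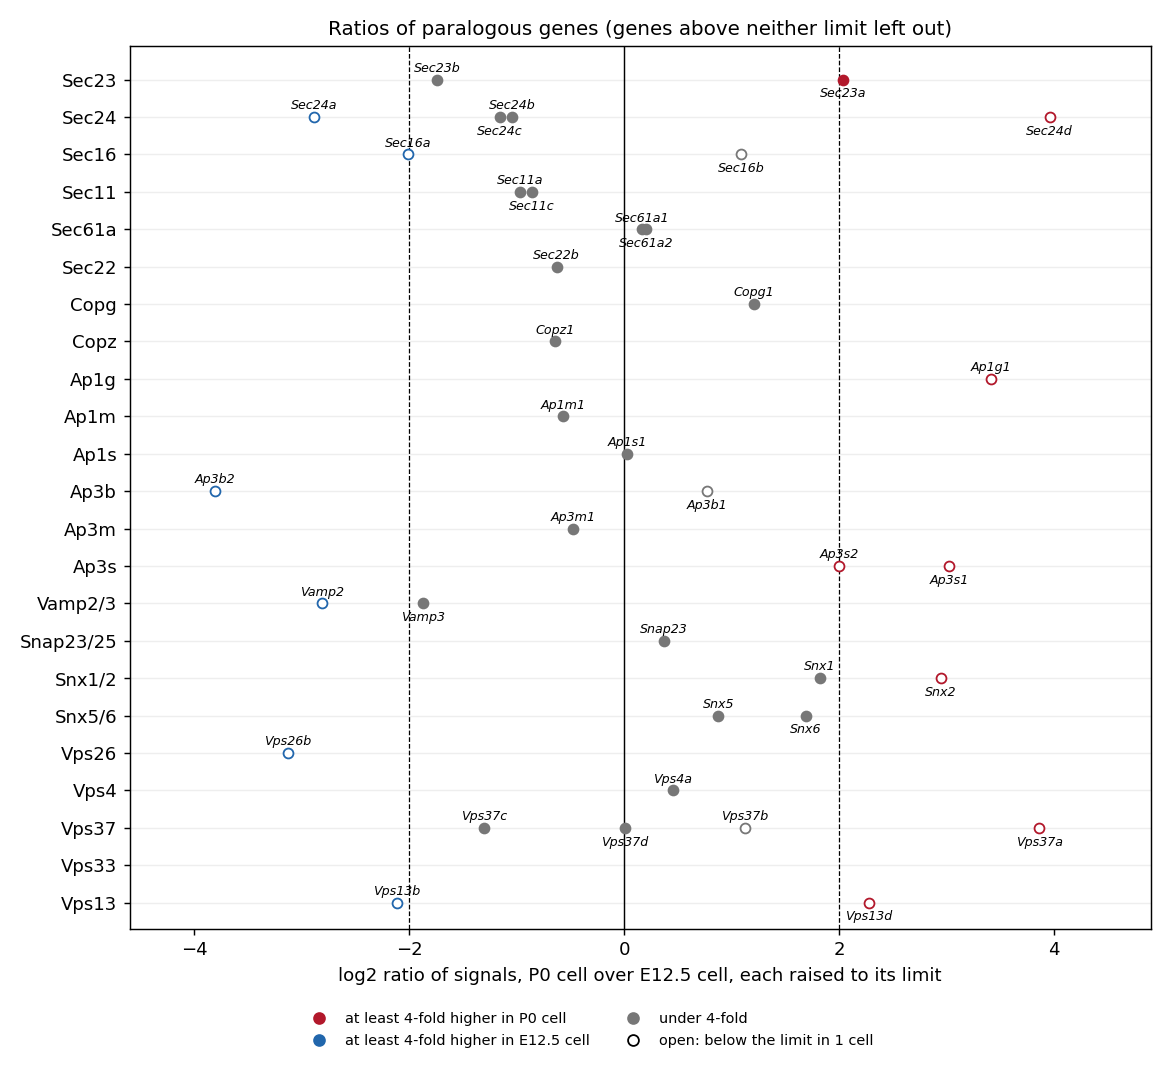
Log2 ratio of signals, P0 cell over E12.5 cell, of the members of 23 families of paralogs, each signal raised to its limit. Open circles are lower bounds, dashed lines mark 4-fold, and genes above neither limit are left out. The Sec24 and Vps13 families have members called in opposite directions, and the other families do not.

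The tethers that catch vesicles before fusion also split within complexes. HOPS, which joins late endosomes to lysosomes, had Vps39 with 3059 at P0 and 85.9 at E12.5 and Vps11 with 2286 and 116, higher by at least 12.01-fold and 8.98-fold at P0. Of the 3 further probe sets of Vps11, 2 were above the limit, and both were at least 4-fold higher at P0. Vps41, of the same complex, had 8644 at P0 and 4972 at E12.5, with 1 of its 2 further probe sets at 176 and 4901, the opposite direction. Vps16 had 8.80 at P0 and 516 at E12.5, Vps8, of the related CORVET tether, had 143 and 294, and Vps18, Vps33a and Vps33b were above neither limit. GARP, which tethers vesicles from endosomes at the Golgi, had Vps51 higher at P0 (1370, against 221 at E12.5, at least 5.38-fold) and Vps52 lower there (265, against 2747 at E12.5, at least 7.90-fold). Its subunits Vps53 (3806 at P0 and 6053 at E12.5) and Vps54 (3821 and 1922) were above both limits and differed by less than 2-fold. The further probe sets of Vps51 and Vps52 were below both limits. Vps51 lost its call under 3 alternative settings, the spike-in scaling among them, and Vps52 under the mean over probe sets. Vps45, a partner that chaperones endosomal SNAREs, had 97.8 at P0 and 1640 at E12.5, at least 4.71-fold lower at P0. Vps50, which replaces Vps54 in a sister complex of GARP, had 431 at P0 and 50.8 at E12.5 and was not called.

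The Vps13 proteins, long bridges that move lipids between membranes, were called once each way. Vps13d had 1236 at P0 and 78.8 at E12.5, at least 4.85-fold higher at P0, and Vps13b had 29.9 and 1510, at least 4.34-fold lower. Vps13c was above neither limit, nor was the probe set used for Vps13a, of which another gave 1.93 at P0 and 647 at E12.5. All further probe sets of Vps13d and Vps13b were below both limits. Sec24 and Vps13 were the 2 of 23 families of paralogs with members called in opposite directions. With the spike-in scaling Vps13d lost its call, and with the mean over probe sets Sec24a, Vps13b and Vps13d lost theirs.

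Of 9 genes that the name pattern took in although they belong to none of these groups, 2 (22.2%) were called, both higher at P0. Of all named genes 9.28% were called higher there. Of the 5 above a limit the share was 40%, against 23.2% of all such genes. With the spike-in scaling 0 of the 9 were called. Sec23ip, which binds Sec23 at ER exit sites, had 1873 at P0 and 293 at E12.5, 6.39-fold higher, and its second probe set gave 860 and 212. Vps35l, of the retriever complex that works beside retromer, had 1412 at P0 and 346 at E12.5, 4.08-fold higher, and another probe set gave 6253 and 2.86. Sec14l1 (5063 at P0 and 5589 at E12.5), Vps9d1 (2040 and 2698) and Vps72 (4666 and 3500), a chromatin protein despite its name, differed by less than 2-fold.

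Promoter windows of RefSeq (build GRCm38.p6), 250 bases before to 50 after the gene start, were on hand for 113 of the 145 genes. The E-box CACGTG, a palindrome that reads alike on both strands, occurred in 11.4% of 132 member windows and in 7.15% of all 32851 windows. The ER stress element, CCAAT and CCACG with 9 bases of any kind between them, was sought on both strands and occurred in 0 member windows and in 0.119% of all windows. Of 29 called genes with a window, 3 held the E-box, all of them higher at P0, and their 250 bases before the start are shown because they are the called genes with a match. Capitals mark the E-box. The Sec23ip stretch is chr7:128744620-128744869 on the plus strand with 47 bases between the E-box and the start, that of Sec62 is chr3:30792626-30792875 on the plus strand with 26 bases between, and that of Snx8 is chr5:140389309-140389558 on the minus strand with 94 bases between. A match is a run of letters and was not tested as a binding site.
Sec23ip: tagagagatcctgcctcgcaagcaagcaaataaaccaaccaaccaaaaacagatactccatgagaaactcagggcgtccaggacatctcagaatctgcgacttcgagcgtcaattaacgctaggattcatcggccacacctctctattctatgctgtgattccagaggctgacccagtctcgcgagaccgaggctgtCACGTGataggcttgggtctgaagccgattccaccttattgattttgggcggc
Sec62: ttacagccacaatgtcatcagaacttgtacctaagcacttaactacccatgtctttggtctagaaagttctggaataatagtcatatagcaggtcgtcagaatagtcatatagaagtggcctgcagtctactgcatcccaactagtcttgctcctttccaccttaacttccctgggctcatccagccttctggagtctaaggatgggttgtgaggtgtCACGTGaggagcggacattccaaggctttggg
Snx8: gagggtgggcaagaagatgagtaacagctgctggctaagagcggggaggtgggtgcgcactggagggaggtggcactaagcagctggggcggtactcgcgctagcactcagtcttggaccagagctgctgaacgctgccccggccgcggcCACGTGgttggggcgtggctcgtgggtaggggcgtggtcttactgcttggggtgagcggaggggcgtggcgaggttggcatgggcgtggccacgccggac

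Of 97 other genes of the same pathways whose names the pattern does not take in, 64 were above the limit at P0 and 69 at E12.5, 53 of them in both. In all, 18 (18.6%) were called higher at P0 and 14 (14.4%) lower, against 9.28% and 7.3% of all named genes, and the median log2 ratio of those above a limit was 0.12. Of the 80 above a limit these are 22.5% and 17.5%, close to the 23.2% and 18.3% of all such genes, and with the spike-ins the counts were 9 higher and 19 lower. Calls of single partner groups were not counted under the spike-in scaling. Of 19 ESCRT partners 13 were above the limit at P0, 12 at E12.5 and 9 in both. Among the 19, 7 were higher at P0 and 1 lower, where 9.28% and 7.3% of all named genes were. They were Chmp4b (at least 13.7-fold) and Chmp1b (at least 7.96-fold), which form the constricting filament with Chmp6 (5.29-fold), the ESCRT-II gene Snf8 (at least 12.1-fold), the ESCRT-I gene Mvb12b (6.88-fold), the ubiquitin receptor gene Hgs (6.45-fold) and Pdcd6ip (at least 5.45-fold), while Chmp3 was at least 8.07-fold lower. The spike-in scaling lowered log2 ratios by 0.87. Mvb12b, Hgs, Pdcd6ip and Chmp6, at log2 ratios of 2.78, 2.69, 2.45 and 2.40, lay within that shift of the 4-fold line at 2. So did Stam2, at -1.15, of the 4-fold line in the other direction. Arcn1, the delta subunit of COPI, had 3361 at P0 and 10.5 at E12.5, at least 13.2-fold higher, and Gbf1, which activates the GTPase that recruits COPI, had 3535 and 190, at least 13.9-fold higher. For COPII the GTPase gene Sar1b had 686 at P0 and 8560 at E12.5, 12.5-fold lower at P0, and Preb, the exchange factor, was at least 7.87-fold lower, but the other Sar1 gene, Sar1a, had 3900 and 1075, 3.63-fold higher and not called.

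Other partners were called in both directions. The SNARE genes Vti1a (at least 11.6-fold), Bet1l (at least 8.92-fold) and Bet1 (7.46-fold) and the regulator gene Stxbp5 (at least 6.01-fold) were higher at P0, and Scfd1, a partner of Stx5a, was at least 6.21-fold lower. Around clathrin, the light chain gene Clta (4.29-fold), the AP-2 alpha subunit gene Ap2a2 (at least 15.3-fold) and Gga3 (at least 8.14-fold) were lower at P0, and Ap3d1, of AP-3, was 5.996-fold higher. Arfgef2, an exchange factor of the Golgi, was at least 7.11-fold lower. Of 8 exocyst genes, which tether vesicles at the plasma membrane, 2 were above the limit at P0 and 6 at E12.5, and Exoc1 (at least 7.39-fold) and Exoc5 (at least 5.76-fold) were lower at P0. The sorting receptor genes Sort1 (at least 8.04-fold) and M6pr (4.54-fold) were lower at P0, and Igf2r (at least 5.39-fold) and the lipid kinase partner Pik3r4 (5.28-fold) were higher. At the translocon Ssr4 (8.69-fold) and Srp72 (7.78-fold) were lower at P0, and the signal peptidase genes Spcs3 (12.9-fold) and Spcs1 (4.70-fold) were higher.

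Side by side with these, 59 Rab GTPase genes, which direct vesicle traffic, had 27 above the limit at P0 and 21 at E12.5, with 11 (18.6%) called higher at P0 and 3 (5.08%) lower. Of 20 genes of the vacuolar proton pump 10 were above the limit at P0 and 11 at E12.5, with 1 (5.00%) called higher at P0 and 3 (15.0%) lower. Of all named genes 9.28% were called higher and 7.3% lower. These counts are given as a description, and the differences between the gene sets were not tested.

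Further probe sets offered a second reading for part of the genes. Of the 145 genes 56 had a single probe set, 16 of them among the 42 called. Of the called genes, 14 had further probe sets that were all below both limits, among them Sec24a, Snx4, Ap3b2, Vamp2 and Vps39. Another 12 had at least 1 further probe set above a limit. With signals raised to the limits, every such reading had the same sign in 10 of these, and Ap1g1 and Sec63 had 1 of the opposite sign. In 8 at least 1 was itself at least 4-fold apart in the same direction. The 10 include Ap3s2 and Sec62, each with a reading above the limit at E12.5 alone (15.3 at P0 and 305 at E12.5, and 305 and 325). Those readings counted as higher at P0 only because the P0 limit is the larger. For all members with a gene value above a limit, 47 of 59 further probe sets had the same sign as the one used and 12 the opposite one. The 47 include, for the same reason, those readings of Ap3s2 and Sec62 and 1 each of Sec61a1 (271 at P0 and 342 at E12.5) and Vps50 (77.9 and 266). Probe sets of a gene read the same amplified cDNA, so their agreement does not cover the loss of a transcript before amplification or the difference between cells of the same age. The lowest values inside the 4-fold line were those of Ap3s2 (at least 4.01-fold) and Sec16a (at least 4.02-fold), both minima, and the highest outside it were those of Vamp3 (3.65-fold) and Snx1 (3.53-fold).

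**Figure D5:**
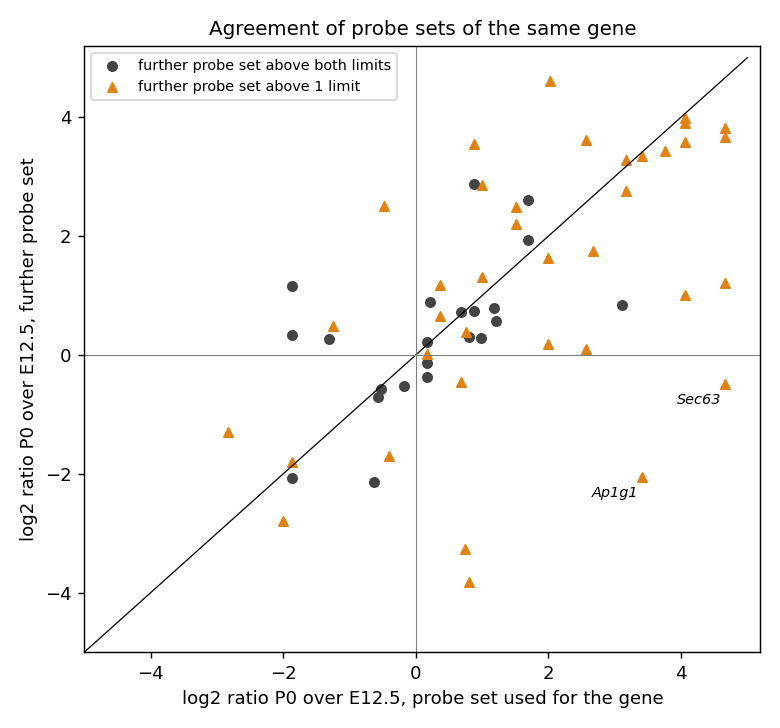
Log2 ratio, P0 cell over E12.5 cell, of 59 further probe sets against the ratio of the probe set used for the same gene, with the diagonal drawn. Dots are further probe sets above both limits and triangles those above 1 limit. With signals raised to the limits, 47 of the 59 share the sign of the probe set used, and those of Ap1g1 and Sec63 that do not are named. Some of the 47 passed the limit at E12.5 alone and count as higher at P0 because the P0 limit is the larger.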

How the data were processed

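Each cell was hybridised to 1 Affymetrix mouse array. The labels' protocols describe picking cells by capillary, priming with oligo dT, tailing the first strand and 35 PCR cycles. The deposited values are MAS5 signal intensities, per the submitters' processing notes, not on a log scale. Leaving out the 2% of probe sets at either end, both arrays had a mean of 500.0, so each array was scaled separately. The software version is not stated in the labels, and detection calls were not used.

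A single symbol was listed for 34958 of 45101 probe sets, several for 932 and none for 9211; the last 2 kinds name no gene here. Symbols were updated by gene identifier to RefSeq (GRCm38.p6) for 34754. A gene with several probe sets was read from the one with the highest average of the 2 log2 signals. The limit came from receptors of smell and taste, proteins of hair, milk, sperm chromatin, egg coat, enamel and urine, intestinal defensins and prolactin relatives. The members, role lists, partner list and rules were chosen with earlier results of these data known. Named are members above a limit, grouped by role, those nearest to 4-fold, and called partner genes; the values of uncalled members above 1 limit were added after they were seen. With 1 cell per age no test was possible, and the number of arrays limits the precision. The calling was tested on simulated data. Changes were planted only in genes with a starting signal far above the limit, with less noise than the probe sets of a gene showed. The simulation therefore says little on calls whose dimmer signal lay under the limit. Alternatives changed the limit, scaling, choice of probe set, fold, floor and filter. Python 3.11.15, NumPy 2.4.6, pandas 2.3.3 and matplotlib 3.10.9 were used.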

Additional observations from a re-analysis of the deposited data

How the results depend on the processing

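No paired analysis was possible because there is 1 cell per age. Scaling to the spike-ins reversed the median log2 ratio of members to -0.46 (0.40 as reported), with 19 members called lower in the P0 cell and 9 partner genes called higher there. The mean over probe sets left 34 members above both limits, 17 called higher in the P0 cell and 6 lower, and 10 and 3 partner genes; in 13 called genes that mean lay below both limits, so no ratio was given. A fold of 2 called 20 members lower in the P0 cell, and a fold of 8 called 18 higher and 4 lower, with 7 and 6 partner genes. Without filter and floor 23 members and 22 partner genes were lower. A limit from the 95th percentile, one from bacterial probe sets, quantile normalisation, log2(signal + 100), leaving out _x_at and _s_at probe sets, and 1 common limit, which was added after seeing the data, kept these counts within 1.5 times. Of 42 calls 18 were kept under all these alternatives other than the changed fold, 13 higher and 5 lower in the P0 cell. Of the 24 lost under at least 1, 14 were lost under the mean over probe sets alone, and the spike-ins ended 9: Ap3s2, Sec13, Sec23a, Sec23ip, Sec62, Snx30, Vps13d, Vps35l and Vps51. A signal below the limit is not absence.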
